A study of Mus musculus with 12 samples.

Results

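Autophagy is the route by which a cell wraps cytoplasm, damaged organelles or engulfed material in a membrane and delivers it to lysosomes. Its core genes were followed here in alveolar macrophages of mice given carbon nanotubes or only the vehicle. The set was defined as 33 listed gene symbols, matched to probes through the platform annotation. Of these, 31 matched 64 probes, and Atg14 and Optn were not analysed here because no probe carried their symbol. Rb1cc1, a scaffold of the initiation complex, had no probe detected on any array, so it was not well above background, and 14 of the 64 probes in all were detected on no array. The remaining 30 genes, read by 50 probes, were measured, 29 of them on all 12 arrays. The platform annotation named 19057 genes in all, of which 10143 were measured.

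The MWCNT group was made of 6 C57Bl/6 mice that received 100 µg of multiwalled carbon nanotubes (MWCNT), stiff and poorly degradable fibres, into the airways through the mouth. The control group was made of 6 C57Bl/6 mice that received only the vehicle, saline with 35% surfactant, which the MWCNT mice received as well. Alveolar macrophages, the phagocytes of the airspaces, were washed from the lungs at day 60, at a stated purity above 90%, and their total RNA was hybridised to 1 Illumina MouseWG-6 v2 array per mouse. The labels give no age or sex, and the model is studied for chronic granulomatous inflammation.

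Autophagy starts when the ULK kinase complex is released from inhibition by the nutrient sensor mTORC1 and activates a lipid kinase complex built around Pik3c3 and Becn1. The phospholipid made there recruits WIPI proteins, Atg2 proteins move lipid into the growing membrane, and a conjugation system of E1-like, E2-like and E3-like enzymes attaches ATG8 proteins (the LC3 and GABARAP families) to it. Receptors such as Sqstm1 tie cargo to ATG8, and the factor Tfeb activates lysosomal and autophagy genes. In alveolar macrophages the same machinery also handles inhaled particles and microbes, including through attachment of ATG8 proteins to phagosomes.

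Promoters are shown first because Tfeb is among the genes followed and its family binds the letters CACGTG. RefSeq promoters on GRCm38.p6, from 250 bases before to 50 after a gene's start, were at hand for 27 of the 33 genes. CACGTG reads the same on both strands. It was present in 7.15% of all 32851 promoters, and the longer TCACGTGA, which contains it, in 0.974%. Among the autophagy genes it was found in Atg3 (at -94 and -71 from the start), Atg5 (at -14), Atg7 (at -132) and Atg14, and only Atg3 held the longer form. The 3 measured carriers are printed, with Ulk1 and Gabarapl1, which were called in some of the alternative settings given below, for comparison. Each line gives 100 bases of the gene's own strand, 5′ to 3′, with CACGTG in capitals.
Atg3 (chr16:45158699-45158798, plus strand): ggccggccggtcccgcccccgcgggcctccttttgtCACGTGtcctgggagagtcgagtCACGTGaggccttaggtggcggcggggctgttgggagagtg
Atg5 (chr10:44268239-44268338, plus strand): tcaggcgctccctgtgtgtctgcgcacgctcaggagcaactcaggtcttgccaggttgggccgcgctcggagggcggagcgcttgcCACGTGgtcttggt
Atg7 (chr6:114670916-114671015, plus strand): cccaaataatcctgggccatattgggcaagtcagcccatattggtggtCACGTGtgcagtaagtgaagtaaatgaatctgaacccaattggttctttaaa
Ulk1 (chr5:110810082-110810181, minus strand): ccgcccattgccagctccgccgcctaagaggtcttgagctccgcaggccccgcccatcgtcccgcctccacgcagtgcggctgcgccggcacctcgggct
Gabarapl1 (chr6:129533092-129533191, plus strand): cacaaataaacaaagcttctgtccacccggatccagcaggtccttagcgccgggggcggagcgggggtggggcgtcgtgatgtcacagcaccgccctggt
The log2 fold changes of the 3 measured carriers ran from -0.27 to 0.15, inside the range of -0.36 to 0.20 of the 22 measured genes whose promoter window did not hold these letters. A match here describes the letters of a window and says nothing of binding.

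The arrays held enough signal to follow these genes, and their number, 6 per group, limits the precision. Between 39.12% and 40.53% of probes were detected on MWCNT arrays, against 38.03% to 39.33% on control arrays. All 12 measured alveolar macrophage markers were detected on every array, with a mean level of 12.73 to 12.90 on MWCNT arrays and 12.82 to 12.88 on control arrays, a mean over 2 raised (Marco, Car4), 2 lowered (Krt79, Cidec) and 8 not called. Levels are normalised log2 intensities throughout. Markers of other cells moved with the treatment: the mean of 9 monocyte-derived macrophage markers was 8.63 to 9.26 with MWCNT and 7.72 to 8.10 in controls (8 raised), that of 11 T and NK cell markers 7.14 to 8.73 and 6.08 to 6.45 (9 raised, 4 of the 11 detected on no control array), and that of 2 B cell markers 4.99 to 8.97 and 4.61 to 4.93 (both raised, neither detected on a control array). Neutrophil markers averaged 8.14 to 8.88 with MWCNT and 7.40 to 7.79 in controls (3 of 6 raised), dendritic cell markers 7.39 to 8.19 and 6.99 to 7.26 (3 of 4), and epithelial markers 7.83 to 8.80 and 7.25 to 8.29 (2 of 6). Each of these lists held 1 marker detected on no control array. Markers detected on no control array passed the detection filter through the MWCNT arrays alone, which favours a rise. The counts of raised markers are therefore not independent of the filter. Of 8 listed B cell markers, 5 had a probe by symbol and only the 2 given were kept. The direction of these 2 was largely set by the filter. The part of these other cells in the autophagy values was not tested, and in bulk RNA fewer cells of a type and less RNA per cell cannot be told apart. MWCNT arrays 5 and 6 carried the Y-linked transcript Eif2s3y at 10.73 and 10.87, against 4.48 to 4.79 on the other 10 arrays, so results that rest on these arrays are also given without them.

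No autophagy gene was called changed at day 60. In limma's test with Benjamini-Hochberg adjustment over 13210 features, 0 of the 30 measured genes had an adjusted p under 0.05, while 12.9% of all features did (6.98% raised, 5.89% lowered by MWCNT). At an unadjusted p under 0.05 there were 5 of 30 (16.7%), namely Ulk1, Atg7, Wipi2, Tfeb and Gabarapl1, against 27.6% of all features. In no gene did every MWCNT array lie above every control array, or below, which was the case for 4.07% and 2.81% of features. Leaving out 1 array made 1 gene a call in 4 of 12 cases: Ulk1 without MWCNT array 4, control array 1 or control array 2, and Gabarapl1 without MWCNT array 6. Over all features the 12 cases gave 1370 to 1686 calls.

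Differences were small and their intervals narrow. The median log2 fold change, MWCNT minus control, was -0.05 over the 30 genes and -0.02 over all features, and the median size regardless of sign was 0.11 and 0.14. No gene reached 1.5-fold, which 6.31% of all features did. The 95% interval lay within 1.5-fold either way for 29 of 30 genes (96.7%, against 78.7% of all features), the exception being Tfeb, and within 2-fold for all 30. Detection on all 12 arrays held for 29 of the 30 genes, but for only 10454 of the 13210 features. The shares over all features were not matched for this.

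**Figure D1:**
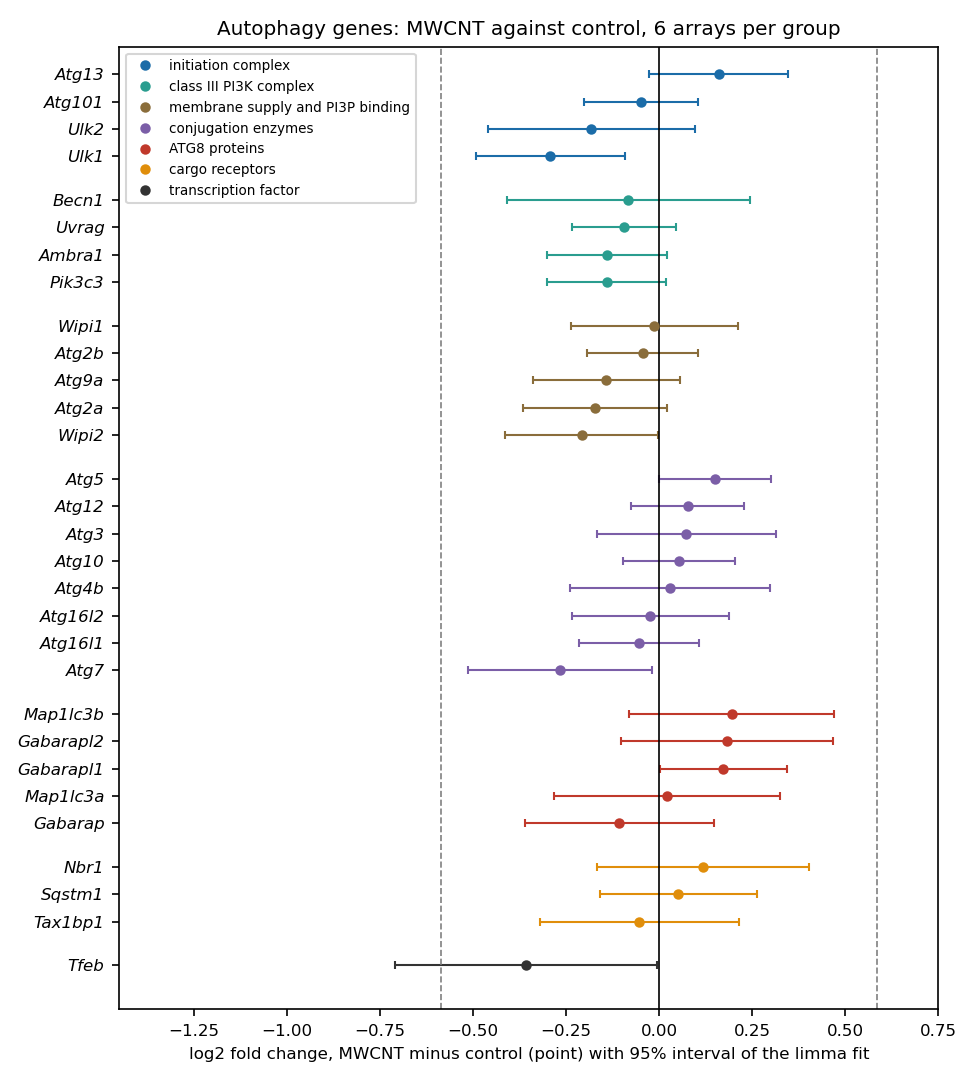
Log2 fold change of each of the 30 measured autophagy genes, MWCNT minus control (point), with the 95% interval of the limma fit over 6 arrays per group, grouped and coloured by role. Dashed lines mark 1.5-fold, and only the interval of Tfeb (-0.71 to -0.01) crosses one of them.

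The initiation complex gave the gene nearest to a call. Ulk1, the kinase that triggers autophagosome formation, had levels of 9.10, 9.25 and 9.43 on MWCNT arrays (lowest, median, highest), against 9.36, 9.51 and 9.81 on control arrays. On 5 of 6 MWCNT arrays it lay below the lowest control array, and MWCNT array 4 made the groups overlap. Its log2 fold change was -0.29 ± 0.09 (SE), with an adjusted p of 0.0554 in the limma fit. A second Ulk1 probe lay at -0.23 ± 0.09 (adjusted p = 0.127 over all kept probes). Over 26 alternative settings the adjusted p ran from 0.0182 to 0.381, and Ulk1 was called lowered in 10 of them, including the authors' processed values (-0.21, adjusted p = 0.0440). Without MWCNT arrays 5 and 6 it was -0.27, with an adjusted p of 0.141.

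The partners of Ulk1 were closer to their control levels. Ulk2, its paralogue, had 8.66, 8.83 and 9.18 with MWCNT and 8.69, 9.09 and 9.37 in controls, a log2 fold change of -0.18 ± 0.13 (adjusted p = 0.397), with wide overlap. Atg13, the adaptor that holds the complex together, was at 9.13, 9.39 and 9.55 with MWCNT and 9.06, 9.19 and 9.37 in controls (0.16 ± 0.09, adjusted p = 0.254). Atg101, which binds and stabilises Atg13, was at 10.41, 10.59 and 10.75 with MWCNT and 10.54, 10.62 and 10.74 in controls (-0.05 ± 0.07, adjusted p = 0.709). Of the 4 measured genes of this complex, 3 lay below 0, beside 54.7% of all features. With arrays scaled to the median of all probes 2 lay below 0, where the median of all features was itself at 0.10. Below the median of all features lay 3 of 4 with either scaling.

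No gene of the lipid kinase complex was called. Pik3c3, the catalytic subunit, had 10.37, 10.46 and 10.58 on MWCNT arrays, against 10.42, 10.60 and 10.76 on control arrays, a log2 fold change of -0.14 ± 0.07 (adjusted p = 0.240). All 6 MWCNT arrays were below the control median, and 2 were below the lowest control. Ambra1, a positive regulator of Becn1, differed by -0.14 ± 0.08 (adjusted p = 0.249), Uvrag, the subunit of the form that acts on endosomes and late steps, by -0.09 ± 0.06 (adjusted p = 0.380), and Becn1, the regulatory subunit, by -0.08 ± 0.15 (adjusted p = 0.778). The probes that stand for these 4 genes lay below 0, but other kept probes of Becn1 and Ambra1 were at 0.22 ± 0.12 and 0.08 ± 0.11. With arrays scaled to the median of all probes 2 of 4 genes lay below 0, where the median of all features was itself at 0.10. Below the median of all features lay 4 with quantile normalisation and 3 with that scaling.

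No gene of membrane supply or of binding to the lipid signal was called. Wipi2, which brings the conjugation machinery to the lipid signal, was at 8.56, 8.78 and 8.79 with MWCNT and 8.69, 8.96 and 9.18 in controls, with all 6 MWCNT arrays below the control median. Its log2 fold change was -0.21 ± 0.10 (adjusted p = 0.174), and its 2 other kept probes also lay below 0. The lipid transfer genes Atg2a and Atg2b differed by -0.17 ± 0.09 (adjusted p = 0.238) and -0.04 ± 0.07 (adjusted p = 0.734). Atg9a, the membrane protein of the seed vesicles, differed by -0.14 ± 0.09 (adjusted p = 0.347), and Wipi1, a relative of Wipi2, by -0.01 ± 0.10 (adjusted p = 0.956). The probes that stand for these 5 genes all lay below 0, beside 54.7% of all features. With arrays scaled to the median of all probes 2 of 5 lay below 0, where the median of all features was itself at 0.10. Below the median of all features lay 4 of 5 with either scaling.

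The conjugation enzymes split around 0. Atg7, the E1-like enzyme that activates both Atg12 and the ATG8 proteins, was at 9.90, 10.19 and 10.33 on MWCNT arrays and 10.13, 10.41 and 10.83 on control arrays. Every MWCNT array was below the control median, yet only 2 were below the lowest control array, and the log2 fold change of -0.27 ± 0.11 had an adjusted p of 0.148. Atg5, which is joined to Atg12 to form the E3-like unit, was at 11.99, 12.13 and 12.18 with MWCNT and 11.82, 11.96 and 12.10 in controls (0.15 ± 0.07, adjusted p = 0.183). All 6 MWCNT arrays exceeded the control median of Atg5, and 3 exceeded the highest control.

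The other conjugation genes differed by less than 0.08 either way. The E2-like enzymes Atg3 and Atg10 were at 0.07 ± 0.11 and 0.05 ± 0.07, and Atg12, the ubiquitin-like partner of Atg5, was at 0.08 ± 0.07. Atg4b, the protease that trims ATG8 proteins before conjugation, was at 0.03 ± 0.12. Atg16l1, which places the E3-like unit on membranes, was at -0.05 ± 0.07, and its paralogue Atg16l2 at -0.02 ± 0.10. Their adjusted p ran from 0.529 to 0.916. Of the 8 enzymes, 5 lay above 0, which became 7 with the median of all probes as the scale and 1 with the median of the kept probes. Above the median of all features lay 5 with quantile normalisation and 6 with either median as the scale.

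No ATG8 gene was called over all 12 arrays, and the result for Gabarapl1 depended on the arrays included. Gabarapl1 was at 10.61, 10.97 and 11.03 on MWCNT arrays, against 10.63, 10.72 and 10.81 on control arrays. Its 4 highest MWCNT arrays (10.97 to 11.03) lay above every control array, and the other two, at 10.79 and 10.61, were arrays 5 and 6, those with Y-linked signal. Over all arrays the log2 fold change was 0.17 ± 0.08 (adjusted p = 0.178), and without arrays 5 and 6 it was 0.27 (adjusted p = 0.0197), when 7.24% of all features were called raised. With the Y-linked signal as a covariate the value was the same by construction, since only MWCNT arrays carried that signal (adjusted p = 0.0171). Without MWCNT array 6 alone the value was 0.23 (adjusted p = 0.0479). For the 2 kept B cell markers arrays 5 and 6 (mean level 4.99 and 6.68) lay below every other MWCNT array (7.23 to 8.97). Neutrophil markers (8.14 and 8.42, others 8.59 to 8.88), monocyte-derived macrophage markers and epithelial markers were also lowest on these arrays. T and NK cell markers were not, at 7.14 and 8.34 in a range of 7.14 to 8.73 over MWCNT arrays. Dendritic cell and alveolar macrophage markers were not either. Gabarapl1 was lowest on array 6, and the part of cell mixture in its values was not tested.

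Map1lc3b, the LC3 gene most used as a marker of autophagosomes, was spread more widely among MWCNT arrays (SD 0.30) than among control arrays (SD 0.14), a difference that was not tested. It had 9.51, 9.77 and 10.25 with MWCNT and 9.50, 9.62 and 9.87 in controls, with arrays 2 and 3 of the MWCNT group above every control. The log2 fold change was 0.20 ± 0.13 (adjusted p = 0.354). Map1lc3a, its paralogue, was at 0.02 ± 0.14 (adjusted p = 0.946) and Gabarapl2, a GABARAP relative detected on 5 of 6 control arrays, at 0.18 ± 0.13 (adjusted p = 0.410). Gabarap was at 13.55, 13.79 and 14.19 with MWCNT and 13.72, 13.89 and 14.14 in controls (-0.11 ± 0.12, adjusted p = 0.612). Of the 5 ATG8 genes, 4 lay above 0, also with the median of all probes as the scale, and 3 with the median of the kept probes. Above the median of all features lay 4 under each of these scalings.

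The cargo receptors had nearly equal levels in the groups. Sqstm1, which links ubiquitin-tagged cargo to ATG8 proteins and is itself degraded with it, was at 12.61, 12.70 and 12.94 on MWCNT arrays and 12.31, 12.66 and 12.91 on control arrays (0.05 ± 0.10, adjusted p = 0.785). The control arrays of Sqstm1 spanned the wider range and held most of the MWCNT values inside it. Nbr1, a receptor of similar build, was at 0.12 ± 0.13 (adjusted p = 0.619), and Tax1bp1, which serves in removal of ubiquitin-tagged bacteria and aggregates, at -0.05 ± 0.12 (adjusted p = 0.829). Transcript levels do not report protein turnover, which was not measured.

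Tfeb, the transcription factor of the set, had the widest interval of the 30 genes. Its levels were 6.51, 6.94 and 7.42 on MWCNT arrays and 6.82, 7.32 and 7.69 on control arrays. Of the 6 MWCNT arrays, 5 were below the control median and 2 below the lowest control, so the groups overlapped broadly. The log2 fold change was -0.36 ± 0.16, a fold of 0.780, with an adjusted p of 0.173. A second Tfeb probe, dimmer, lay at -0.07 ± 0.17. The value of the first was -0.12 with arrays scaled to the median of all probes, where the median of all features was itself at 0.10. It was -0.32 with the median of the kept probes as the scale, -0.29 with an offset of 50, -0.18 without background correction and -0.11 in the authors' processed values. Relative to the median of all features it was at -0.34 with quantile normalisation and at -0.22 with either median.

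**Figure D2:**
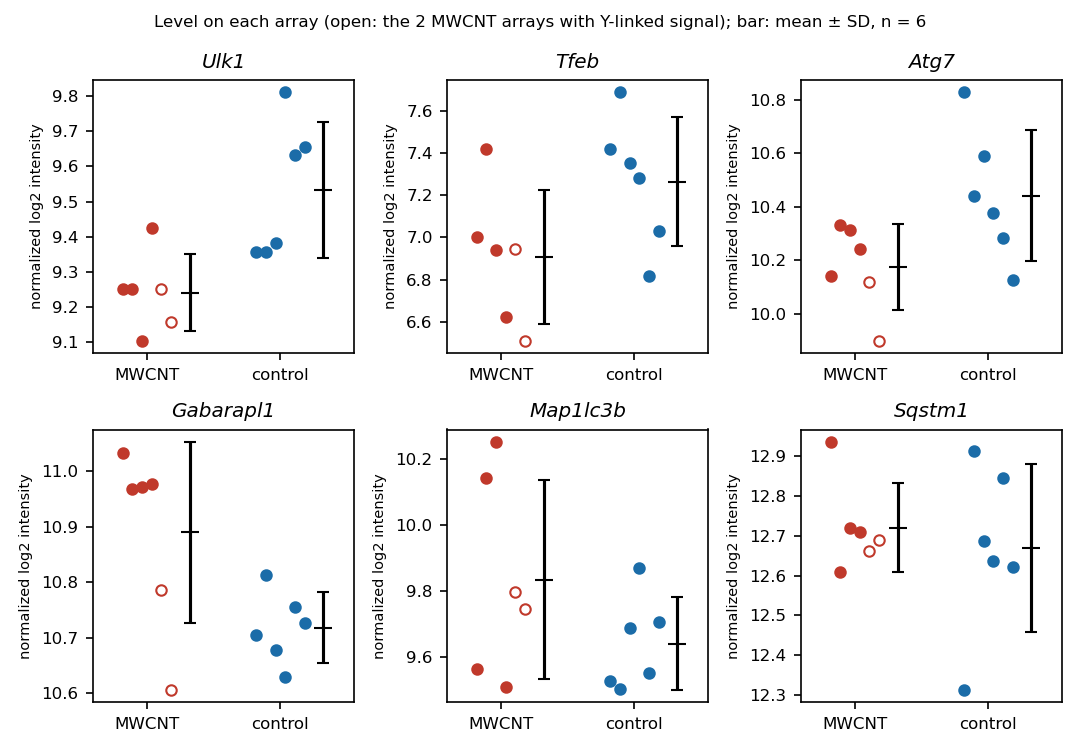
Normalised log2 intensity of 6 autophagy genes on each array, MWCNT at left and control at right, with the mean ± SD (n = 6) beside each group and the 2 MWCNT arrays with Y-linked signal drawn open. For Gabarapl1 the 4 filled MWCNT points lie above all control points, and for Ulk1 1 MWCNT point (9.43) lies within the control range.

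Several genes had more than 1 usable probe, which shows how far a gene's value rests on the probe. Of the 30 genes, 16 had 1 kept probe and 14 had several, and in 6 of these 14 the probes differed in sign. Among the 50 kept autophagy probes, tested with every kept probe as its own feature, 1 was called, against 11.5% of all 19291 kept probes. It was a dim Ambra1 probe, at 5.68 to 6.11 on MWCNT arrays and 6.01 to 7.13 on control arrays (-0.53 ± 0.15, adjusted p = 0.0383). The other Ambra1 probes, both brighter, lay at -0.14 ± 0.08 and 0.08 ± 0.11 and were not called. The probes of Ulk1, Ulk2, Uvrag, Atg2b, Wipi2 and Tfeb were all below 0 and those of Atg5 and Atg10 all above 0, while those of Ambra1, Atg2a, Becn1, Map1lc3a, Nbr1 and Wipi1 pointed both ways.

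**Figure D3:**
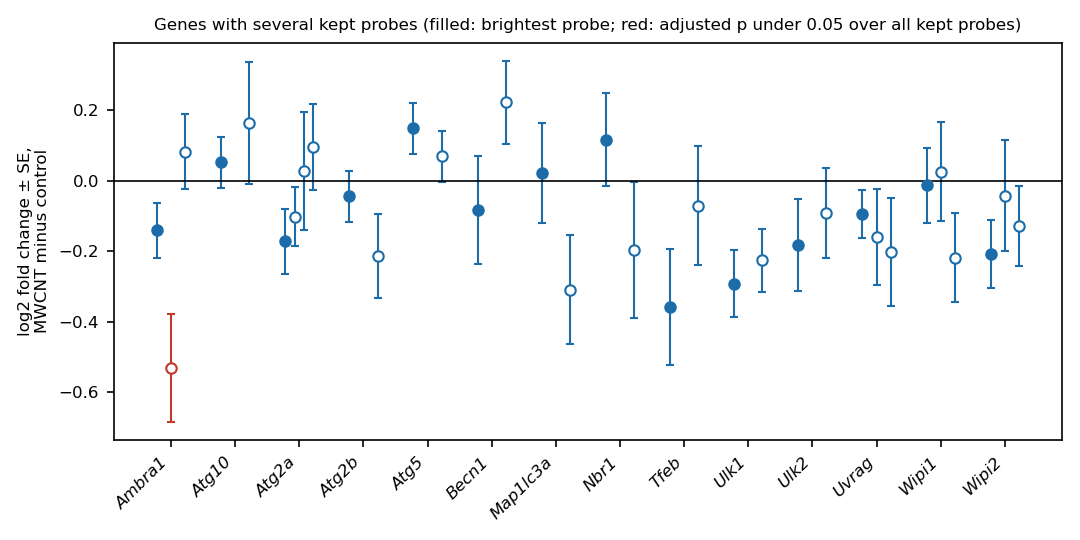
Log2 fold change ± SE, MWCNT minus control, of every kept probe of the 14 autophagy genes with several. Filled points are the brightest probe, which stands for the gene, and the single red point is the Ambra1 probe at -0.53.

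The direction of small differences depended on how arrays were scaled to each other. Scaling to the median of all probes moved the median of all features by 0.12 on the log2 scale, and using the kept probes' median in its place moved it by -0.08. The number of autophagy genes below 0 was 18 with quantile normalisation, 10 with the first scaling and 24 with the second. Of all calls, 54.2% were raised with quantile normalisation, 88.7% with the first and 30.3% with the second. Atg13 was called raised with the first (0.30, adjusted p = 0.0393), where 12.8% of features were, and Ulk1 (-0.35, adjusted p = 0.0182) and Pik3c3 (-0.24, adjusted p = 0.0333) were called lowered with the second, where 14.1% of features were. Relative to the median of all features, Ulk1 was at -0.27 with quantile normalisation and at -0.25 with either median, Atg13 at 0.18 and 0.20, and Pik3c3 at -0.12 and -0.14. Both median scalings shift whole arrays by a constant, so their values relative to that median are equal by construction and count as 1 comparison.

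**Figure D4:**
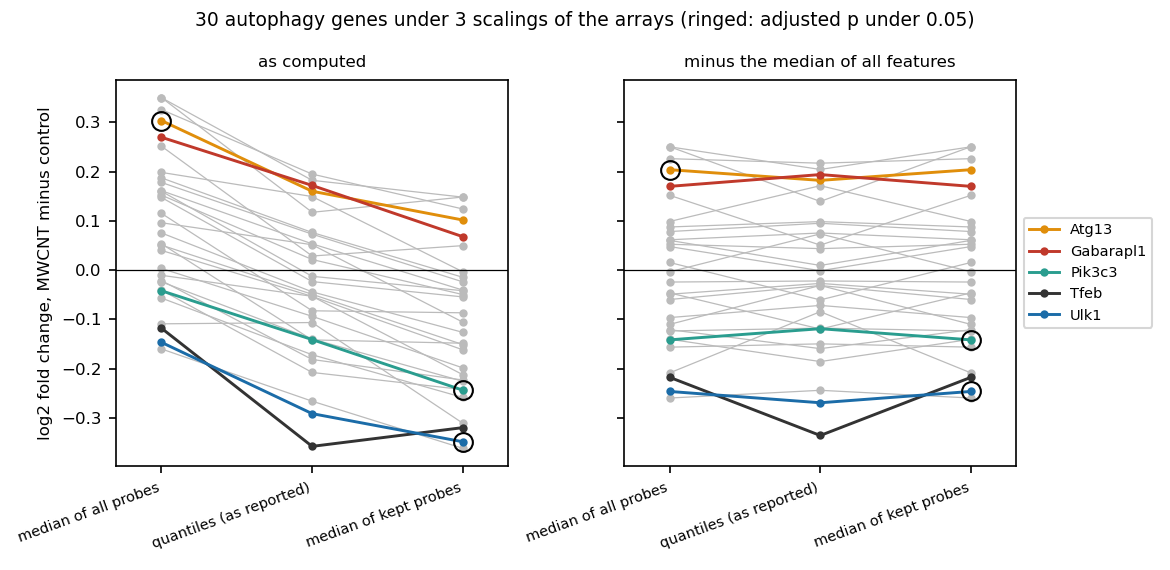
Log2 fold change, MWCNT minus control, of the 30 autophagy genes under 3 scalings of the arrays, as computed (left) and after subtracting the median of all features (right). Rings mark an adjusted p under 0.05. At left Ulk1 runs from -0.35 to -0.15, and at right it is at -0.27 with quantiles and at -0.25 with both medians, which are equal there by construction.

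Further genes of the pathway were read from 3 lists, which together counted 9 calls among 84 measured genes, 6 raised and 3 lowered, beside the background of 12.9%. Of 25 other core and fusion genes, which supply further ATG proteins and fuse autophagosomes with lysosomes, 0 were called, and 0 had an unadjusted p under 0.05 in limma's test. Their median log2 fold change was 0.02, and the brightest, Rab7, the small GTPase of late endosomes, was at 0.08 ± 0.07 (adjusted p = 0.495). Of 22 genes of selective autophagy and mitophagy 1 was raised and 1 lowered, and of 37 genes that control mTORC1, AMPK and the TFEB family 5 were raised and 2 lowered. The 9 calls fell to 5 without MWCNT array 3, or without control array 2, 4 or 6.

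Among the selective autophagy genes Stbd1, the starch-binding protein that tethers glycogen for delivery to lysosomes, rose. It was at 7.78, 8.07 and 8.29 on MWCNT arrays and 7.45, 7.55 and 7.71 on control arrays. No MWCNT array overlapped the controls, and the log2 fold change was 0.50 ± 0.09 (adjusted p = 0.00229). Usp30, a deubiquitinase of mitochondria that restrains mitophagy, fell, at 7.59, 7.66 and 7.90 with MWCNT and 7.79, 7.93 and 8.11 in controls (-0.26 ± 0.08, adjusted p = 0.0366). The Usp30 call was lost when any 1 of 9 of the 12 arrays was left out (adjusted p up to 0.0801), and remained without MWCNT array 2, control array 3 or control array 5. The brightest gene not called, Lgals3, the galectin that marks damaged lysosomes, was at -0.12 ± 0.07 (adjusted p = 0.316).

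The Rag GTPases, which bring mTORC1 to the lysosome, moved in different directions. Rragd was detected on 5 of 6 MWCNT arrays (5.01, 5.92 and 6.36 lowest, median and highest) and on no control array (4.67, 4.76 and 4.99). It therefore passed the detection filter through the MWCNT arrays alone. In the main processing the MWCNT level was at least 1.32-fold higher. Limma's adjusted p, which tests the fitted difference and not this bound, was 0.00276, and 0.00625 with no filter. The lowest MWCNT array of Rragd was array 5. Rragb was lower, at 5.36, 5.59 and 6.09 on MWCNT arrays and 5.91, 6.42 and 7.04 on control arrays, with array 5 alone reaching the control range (-0.77 ± 0.17, adjusted p = 0.00811). Rragc was at 13.15, 13.25 and 13.44 with MWCNT and 12.98, 13.03 and 13.15 in controls (0.22 ± 0.07, adjusted p = 0.0415). The Rragc call was kept without MWCNT array 4 or control array 3 and lost without any other single array (adjusted p up to 0.0848), and with the median of the kept probes as the scale Rragc was at 0.04. Rraga had no kept probe.

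The other calls of the control list were of mixed roles. Bcl2, an inhibitor of cell death that also binds Becn1, was at 5.84, 6.03 and 6.79 on MWCNT arrays and 5.10, 5.33 and 5.78 on control arrays, where it was detected on 2 of 6. Its groups did not overlap, and the log2 fold change was 0.81 ± 0.17 (limma's adjusted p = 0.00749, and 0.0150 with no filter). The control arrays alone would not have met the detection filter of 3 arrays, so Bcl2 was kept through the MWCNT arrays. The size of its difference depends on background handling because most control arrays did not detect it. Lymphocytes express Bcl2, and the T and NK markers given above moved the same way, a part that was not tested. Prkag1, a regulatory subunit of the energy sensor AMPK, fell, at 10.42, 10.52 and 10.67 with MWCNT and 10.70, 10.77 and 10.91 in controls, with no overlap (-0.25 ± 0.06, adjusted p = 0.0216), a call lost without MWCNT arrays 5 and 6 (-0.22, adjusted p = 0.0736).

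Tfec, a Tfeb relative active in macrophages, and Tbc1d7, a subunit of the TSC complex that inhibits mTORC1, rose less firmly. Tfec was at 7.52, 7.67 and 8.06 on MWCNT arrays and 7.28, 7.37 and 7.59 on control arrays (0.34 ± 0.10, adjusted p = 0.0398), highest on MWCNT arrays 5 and 6. Without those arrays it was at 0.21 (adjusted p = 0.130), and it was called without 1 array only where that was MWCNT array 1, 2 or 4 or control array 1. Tbc1d7 was at 9.06, 9.31 and 9.42 with MWCNT and 8.90, 8.95 and 9.23 in controls (0.29 ± 0.08, adjusted p = 0.0330), called without 1 array only where that was MWCNT array 2 or 4 or control array 1 or 3. The Tfec call was also lost in the authors' processed values (0.14, adjusted p = 0.0540), with no filter (0.0555), with trend and robust variances (0.0541) and with the replicate block (0.0691). The brightest gene not called was Lamtor4, a part of the lysosomal anchor of the Rag GTPases, at -0.08 ± 0.07 (adjusted p = 0.493). The kinase Mtor itself was at -0.04 ± 0.11 and its partner Rptor at 0.02 ± 0.06, while the Tfeb relatives Tfe3 and Mitf were at 0.21 ± 0.07 (adjusted p = 0.0688) and -0.03 ± 0.14.

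The sizes of the dimmer calls depended on background handling. In the authors' processed values, which carry a high floor, and without background correction, Bcl2 was at 0.14 and 0.25, Rragb at -0.14 and -0.26, Stbd1 at 0.22 and 0.31 and Usp30 at -0.12 and -0.17, each still called. Rragd was at 0.17 and 0.33 there, also still called, so its bound of 1.32-fold belongs to the main processing only. With an offset of 50 Bcl2 was at 0.50, Rragd at 0.58 and Rragb at -0.51.

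Scaling, the variance model, the replicate block and the arrays with Y-linked signal ended several calls. With trend and robust variances Usp30 had an adjusted p of 0.0747. With the replicate block the adjusted p was 0.0576 for Prkag1, 0.105 for Rragc and 0.0722 for Usp30. With arrays scaled to the median of all probes Prkag1 was at -0.15 (adjusted p = 0.427), Usp30 at -0.04 (adjusted p = 0.854) and Rragc at 0.24 (adjusted p = 0.110). Tbc1d7 was at 0.23 (adjusted p = 0.0609) when the median was taken over kept probes. Without MWCNT arrays 5 and 6 the adjusted p was 0.125 for Usp30, 0.110 for Rragc and 0.105 for Tbc1d7, while Stbd1 (0.59), Rragd, Bcl2 (0.94) and Rragb (-0.85) were still called.

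**Figure D5:**
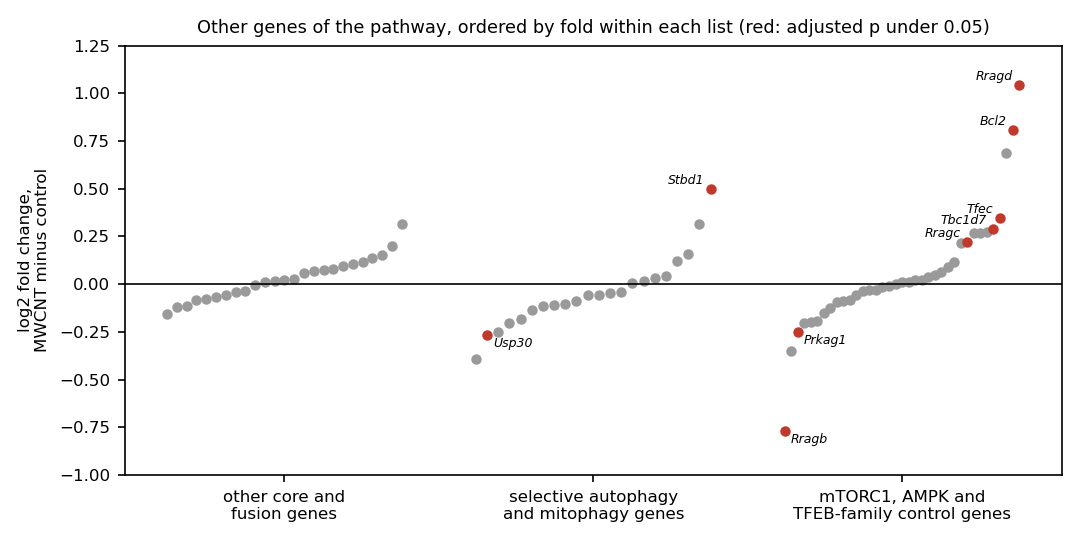
Log2 fold change, MWCNT minus control, of the 84 other measured pathway genes, ordered within their list, with the 9 calls in red and named. Rragd is drawn at its fitted value, although it was detected on no control array, and its bound of 1.32-fold belongs to the main processing.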

How the data were processed

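Each probe has, on each array, a linear intensity and a detection p-value in the deposited scanner output, per its column headers, with no normalisation between arrays. The authors' processed intensity values served as an alternative. Per the submitters' processing notes these came from lumi, with its settings not given in the sources used here. They are linear, with a lowest value of 200.3 and a median of 227.8 in each column, and the origin of that floor is unknown.

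Here limma 3.58.1 (R 4.3.3, statmod 1.5.0) was applied to the scanner signals: neqc with negative controls inferred from detection p-values, an offset of 16, quantile normalisation and log2. Probes detected (p under 0.05) on at least 3 of 12 arrays were kept, 19291 of 45281. The brightest kept probe by mean stands for each gene, and 13210 features resulted, 3067 of them unnamed. Of all probes, 34885 had 1 symbol, 18 several and 10378 none. The 6 MWCNT and 6 control arrays were set against each other with lmFit and eBayes, two-sided and with no covariate, and p-values were adjusted over all features. Each array is a separate mouse per the labels.

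For Rragd, detected on no control array, the fold is a bound: the MWCNT mean against, per control array, the higher of the lowest detected signal and its own. The genes, the pathway and marker lists, the naming rule (every autophagy gene, called genes of each list and the brightest not called; Mtor, Rptor, Tfe3 and Mitf were named after their values were seen) and the alternatives were chosen with earlier results of these data known. Alternatives covered background correction, scaling, filter, probe rule, variance model, array weights, replicate block, source of values and arrays left out. The test was run on simulated data first. Figures used Python 3.11.15 and matplotlib 3.10.9.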

Additional observations from a re-analysis of the deposited data

Results flagged for a closer look

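Among the 60 groups of 6 values (30 autophagy genes, 2 groups each), 3 had 1 array far from the other 5, where chance alone would give about 1 group in 20. The gap to the nearest array took 0.663 of the whole range for Sqstm1 on MWCNT array 1 (12.94, against 12.61 to 12.72 on the other MWCNT arrays). It took 0.652 for Map1lc3a on control array 1 (10.05, against 9.22 to 9.51 on the other control arrays) and 0.657 for Nbr1 on the same array (6.98, against 7.57 to 7.88). In none of these genes did leaving the array out make a call. Eif2s3y, a Y-linked gene outside the comparison, stood at 10.73 on MWCNT array 5 and 10.87 on MWCNT array 6, against 4.48 to 4.79 on the other arrays, with Xist at 5.00 and 4.58 there and at 10.76 or more elsewhere. The labels used here give no sex.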

How the results depend on the processing

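Of 779 recomputed values of autophagy genes, 725 kept their direction and side of the threshold. The sign changed in 39 without a call on either side (in 17 genes), and 15 became calls with their sign kept (in Ulk1, Gabarapl1, Atg13 and Pik3c3). A change of sign together with a call occurred in 0, and with 0 calls as reported there was none to reverse. Settings that changed only the filter, the variance model or the replicate block, or tested every kept probe as its own feature, left a probe's fold as it was. A sign could not change there, so the kept directions in those settings are no evidence of stability. The count of called autophagy genes, 0 as reported, was 1 without background correction, with an offset of 50, with scaling to the median of all probes and in the authors' processed values. It was also 1 with trend and robust variances, with array weights and without the arrays with Y-linked signal. That signal as a covariate, the same comparison by construction, also gave 1. In these settings all features gave 1587 to 1980 calls of 13210. The count was 2 with scaling to the kept probes, where all features gave 2670. The replicate numbers were not taken to pair the mice, since they name separate animals. After each feature's group mean was subtracted, same-numbered MWCNT and control arrays correlated at -0.18 to 0.15, with 4 of 6 pairs above 0.1. Of the 6 MWCNT arrays, 3 correlated best with the control array of their own number. Whether same-numbered arrays shared a processing step was not tested. With the replicate block the calls of Prkag1, Rragc, Tfec and Usp30 were lost, and 1 autophagy gene (Ulk1, adjusted p = 0.0498) and 5 other pathway genes were called. All features gave 1488 calls with that block. The other pathway genes gave 15 calls with scaling to the kept probes. All features gave 2670 calls with that scaling and 1111 when only probes detected on all 12 arrays were tested, which are fewer features. Leaving out each array gave 0 to 1 autophagy calls, 5 to 9 other pathway calls and 1370 to 1686 calls in all. The cause of these differences was not tested, except that the last filter tests fewer features. The BeadChip of each array is not given in the headers used here, so a block for it was not run. Dim probes such as those of Gabarapl2 and Tfeb lie nearer to background, and 6 arrays per group limit precision.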

Other observations

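Ddit4, a stress-induced inhibitor of mTORC1 that lies in the control list, was at 0.69 ± 0.25 over all arrays (adjusted p = 0.0917) and at 1.06 without MWCNT arrays 5 and 6 (adjusted p = 0.000129 in limma's fit). Ddit4 was detected on 5 of 6 MWCNT arrays and 3 of 6 control arrays, so its levels lay near background. It was picked after its values were seen. The oxidant sensor pair Keap1 and Nfe2l2, which is tied to Sqstm1 because Sqstm1 can bind Keap1, was at 0.03 ± 0.07 and -0.05 ± 0.19. Wdfy3, a scaffold for clearing aggregates, was at -0.39 ± 0.17 (adjusted p = 0.156) and Vmp1, a membrane protein of autophagosome formation, at 0.31 ± 0.15 (adjusted p = 0.181), and these genes were also chosen after their values were seen.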
